A study of Homo sapiens with 6 samples.

Results

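The genes of the FAS and TRAIL death receptor pathway were followed in HCT116, a long-established cell line from a human colorectal carcinoma, after oxaliplatin treatment. The set was chosen by gene symbol and holds 10 of the 27942 genes in the deposited count table: the receptor gene FAS, the TRAIL receptor genes TNFRSF10A, TNFRSF10B, TNFRSF10C and TNFRSF10D, the ligand gene TNFSF10, the adaptor gene FADD, the initiator caspase genes CASP8 and CASP10, and the inhibitor gene CFLAR. RNA-Seq had been made from 3 libraries of cells kept with 0.5 µM oxaliplatin, a platinum compound that forms DNA adducts, for 24 h (OXA) and from 3 libraries of untreated cells (NT). Both groups came from the same line grown in RPMI medium with bovine serum, so they stand for this line in culture and not for a tumor with its surrounding cells. Neither the labels nor the methods say whether the libraries of a group came from separate cultures, and the p-values then measure only the spread between these libraries.

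Death receptors are cell surface proteins of the TNF receptor family. When FAS ligand binds FAS, or TRAIL binds its receptors, a cytoplasmic death domain recruits the adaptor FADD, which in turn gathers procaspase-8 and procaspase-10 into the death-inducing signaling complex. The caspases activate each other there and cleave caspases further downstream, and they also cleave BID, which links the receptors to the mitochondrial branch of apoptosis. The protein encoded by CFLAR, called c-FLIP, resembles caspase-8 without its protease activity and competes for a place in the complex. TRAIL has further receptors that bind it without sending a full death signal, the decoys encoded by TNFRSF10C and TNFRSF10D. FAS and TNFRSF10B are well known as targets of the transcription factor p53.

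The libraries held between 32979521 and 40967880 counts. Values are given as CPM, counts scaled to a common library size, after TMM normalization, which corrects for differences in composition, and as mean ± SD with n = 3. NT library 1 stood apart from the other untreated libraries, with a chi-square per gene of 83.1 and 75.7 against NT libraries 2 and 3, where the other pairs within a group lay between 19.2 and 29.6. All pairs within a group thus differed by more than counting error, so none was the same library sequenced again. Separate preparations from 1 RNA or 1 culture could differ by this much too, and the values cannot tell these apart from separate cultures. Of 8 epithelial markers 7 were detected, with CDX1 at 0. Their summed level lay between 2200 and 3177 CPM in NT and between 3589 and 4252 CPM in OXA. The means of KRT8, KRT18, KRT19 and CLDN4 were higher in OXA, with KRT19 going from 340 to 829 CPM. Those of EPCAM, CDH1 and VIL1 were lower, so the sum does not stand for a rise of every marker. The 4 leukocyte markers summed to at most 0.227 CPM in any library and the 2 endothelial markers to at most 0.271 CPM, with between 0 and 6 counts for each leukocyte marker in a library. The 4 fibroblast markers summed to between 3.18 and 8.27 CPM over all libraries, most of it from COL1A1, with DCN at 0 in every library and COL1A2 at no more than 2 counts.

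The filter on low counts kept 9 of the 10 genes, which were compared between OXA and NT with the quasi-likelihood test of edgeR, the p-values being adjusted over all 13727 genes tested by the Benjamini-Hochberg method. A gene was taken as changed at an adjusted p under 0.05. All 5 receptor genes and CFLAR rose, between 1.59-fold for CFLAR and 4.64-fold for TNFRSF10C, whereas FADD, CASP8 and CASP10 did not pass. In these bulk libraries a higher level in all cells cannot be told apart from more cells that express a gene. That is 6 of 9 genes higher, where 2.78% of all genes tested were higher, and 0 of 9 lower, where 2.29% of all genes were lower. With upper-quartile factors in place of TMM the split over all genes turned from 381 higher and 315 lower to 348 higher and 493 lower, and the count for the pathway genes was again 6 higher and 0 lower. No gene of the set was lower at an unadjusted p under 0.05 or by DESeq2 either, since all 9 estimates lay above 0. The median log2 fold change of the 9 genes was 0.87, against 0.023 over all genes tested. In 7 of the 9 the lowest OXA value exceeded the highest NT value, which held for 14.5% of all genes (14.4% for OXA below NT).

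**Figure D1:**
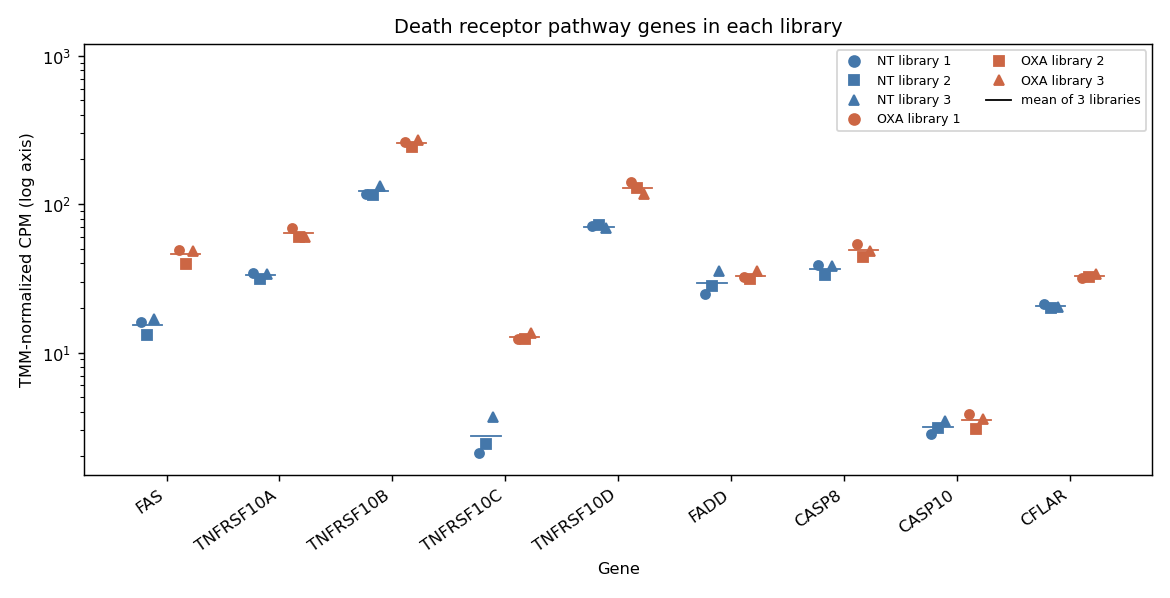
TMM-normalized CPM on a log axis for the 9 tested genes, with 1 point for each library (shape gives the library number) and a bar at the mean of the 3 libraries of NT (blue) or OXA (orange). The OXA points lie above all NT points for the 5 receptor genes, CASP8 and CFLAR, and the groups overlap for FADD and CASP10.

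Libraries that carry the same number in NT and OXA deviated together, so a second fit took the replicate number as a block. In it, 12.1% of all genes tested were higher and 10.9% lower. With the block 7 of the 9 pathway genes were higher and 0 lower, the addition being CASP8. When 1 library was left out, between 5 and 7 of the 9 genes were higher: 7 without NT library 1, and 5 without any of the others, CFLAR being the gene that was lost. Over all genes tested 4.49% were higher without NT library 1, and between 0.474 and 1.10% in the other 5 fits.

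FAS lies on chromosome 10 of GRCh38 from 88953813 to 89029605 on the forward strand (ENSG00000026103). The receptor it encodes binds FAS ligand. Its level was 16.2, 13.2 and 16.9 CPM in NT libraries 1 to 3 and 49.3, 39.6 and 48.7 CPM in OXA libraries 1 to 3. The lowest OXA library was thus more than 20 CPM above the highest NT library. FAS rose 2.98-fold, from 15.4 ± 1.97 to 45.9 ± 5.43 CPM (log2 fold change 1.57 ± 0.14, where the error is the standard error or SE, adjusted p = 0.00247 by edgeR). The log2 difference between same-numbered libraries was 1.61, 1.59 and 1.53. FAS kept an adjusted p under 0.05 in all 15 alternative fits, at log2 fold changes between 1.42 and 1.67.

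A known p53 binding region of FAS is in its first intron. The stretch from 1000 bases before to 2000 bases after the transcription start of each gene was searched for the p53 response element, 2 copies of the p53 half-site of 10 bases with at most 13 bases between them and at most 2 mismatches in all, none at the central C and G of a half-site. Since the element is its own reverse complement in form, the search covers both strands. A match was present for 4 of the 10 genes (FAS, TNFRSF10B, TNFRSF10C and CFLAR) and in 25.1% of the 13675 windows of this length, so a match of this quality is common. No gene of the set had a match with 0 or 1 mismatches, which 4.15% of the windows had. The FAS match was in intron 1, 520 bases after the start of its representative transcript, at chr10:88991309-88991328 of GRCh38 on the forward strand, and is shown because FAS, next to TNFRSF10C, changed most. The 2 half-sites are in capitals, with 15 bases of the intron on each side:
FAS intron 1: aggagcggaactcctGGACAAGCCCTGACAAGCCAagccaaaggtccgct
A second match overlaps it, with the same first half-site and a spacer of 5 bases. The match in TNFRSF10B was in intron 1 at 400 bases after the start and without a spacer, that in TNFRSF10C in intron 1 at 382 bases with a spacer of 9, and that in CFLAR in intron 1 at 1747 bases with a spacer of 9. Such a match is a run of letters and was not tested for binding.

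The region is shared with another gene. ACTA2, which encodes smooth muscle actin, lies on the reverse strand from 88935074 to 88991339 and overlaps both the annotated span of FAS and the match shown. ACTA2 rose as well, from 5.71 ± 0.437 to 22.8 ± 3.40 CPM (log2 fold change 2.00 ± 0.15 SE, adjusted p = 0.00178 by edgeR). The libraries were made with a stranded kit, but the strand setting of the counting is not given in the sources used here, so what part of each gene's counts could stem from the other was not tested. Of the other tested genes within 100 kb of the 10, the only further gene that passed was STRADB, on the far side of CASP8, which fell from 31.6 ± 3.38 to 20.9 ± 1.18 CPM (log2 fold change -0.60 ± 0.12 SE, adjusted p = 0.0304 by edgeR). STRADB passed in 2 of the 6 fits that left out a library, those without NT library 1 or 2. TNFRSF10C is overlapped on its own strand by AC107959.4 and AC107959.5, which had at most 13 counts in a library, and the end of TNFRSF10B by RHOBTB2 on the other strand, which did not pass. STAMBPL1 overlaps FAS on its own strand, with raw counts of 328, 271 and 287 without and 415, 333 and 455 with oxaliplatin (log2 fold change 0.47 ± 0.15 SE, adjusted p = 0.126 by edgeR, and 0.0271 with the block). ANO1, near FADD, was also under 0.05 only with the block, and its groups overlapped (log2 fold change 0.26 ± 0.22 SE, adjusted p = 0.559 by edgeR, and 0.0419 with the block).

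The 4 TRAIL receptor genes lie together on chromosome 8 of GRCh38, from 23020133 (the end of TNFRSF10B) to 23225102 (the start of TNFRSF10A), with TNFRSF10C and TNFRSF10D between them. TNFRSF10C is on the forward strand and the other 3 are on the reverse strand. Because the genes arose as copies of each other, their representative transcripts were compared: no stretch of 100 bases, the read length, and none of 50 bases was shared between any of the 4. All 4 rose.

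TNFRSF10B encodes the signalling receptor DR5 and had the highest level per kb of transcript of the set. It was measured at 117, 115 and 133 CPM in NT and at 264, 244 and 269 CPM in OXA. The groups were far apart, and each varied little by comparison. TNFRSF10B rose 2.13-fold, from 122 ± 9.84 to 259 ± 13.1 CPM (log2 fold change 1.09 ± 0.094 SE, adjusted p = 0.00241 by edgeR). TNFRSF10A, which encodes the other signalling receptor, DR4, was at 34.5, 31.2 and 33.9 CPM in NT and at 69.6, 60.5 and 60.4 CPM in OXA. The groups were separate by a wide margin, and the log2 fold change was 0.94 (SE 0.10, adjusted p = 0.00451 by edgeR). The ratio of TNFRSF10B to TNFRSF10A counts was between 3.40 and 3.93 in NT and between 3.80 and 4.45 in OXA, and the groups overlapped. Its log2 value differed by 0.16 (exact two-sided permutation test, p = 0.2, where 3 against 3 libraries allow no p under 0.1). Between same-numbered libraries the log2 ratio was higher in OXA in 3 of 3 pairs, by 0.16, 0.13 and 0.18. An exact two-sided sign-flip permutation of the pairs gave p = 0.25, the smallest that 3 pairs allow, so neither test could show a difference between the 2 signalling receptors at 0.05.

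Of the decoys, TNFRSF10D encodes a receptor with a shortened death domain and TNFRSF10C one that is held in the membrane by a lipid anchor and has no death domain. TNFRSF10D was at 70.9, 71.9 and 68.8 CPM in NT and at 140.2, 128 and 117 CPM in OXA. The untreated libraries hardly varied, and the treated ones spread more (SD 1.55 against 11.4 CPM). TNFRSF10D rose 1.82-fold, with a log2 fold change of 0.87 (SE 0.092, adjusted p = 0.00451 by edgeR). TNFRSF10C was low, with raw counts of 74, 84 and 146 in the untreated libraries against 413, 406 and 550 in the treated ones, or 2.10, 2.43 and 3.70 CPM against 12.4, 12.3 and 13.6 CPM. The lowest treated library was more than 3 times the highest untreated one, NT library 3. TNFRSF10C had the largest change of the set, 4.64-fold (log2 fold change 2.21 ± 0.22 SE, adjusted p = 0.00380 by edgeR), and its 95% confidence interval, from 1.69 to 2.74, lay above those of the other TRAIL receptors, whose upper ends were between 1.08 and 1.31. The log2 difference between same-numbered libraries was 2.56, 2.34 and 1.88.

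**Figure D2:**
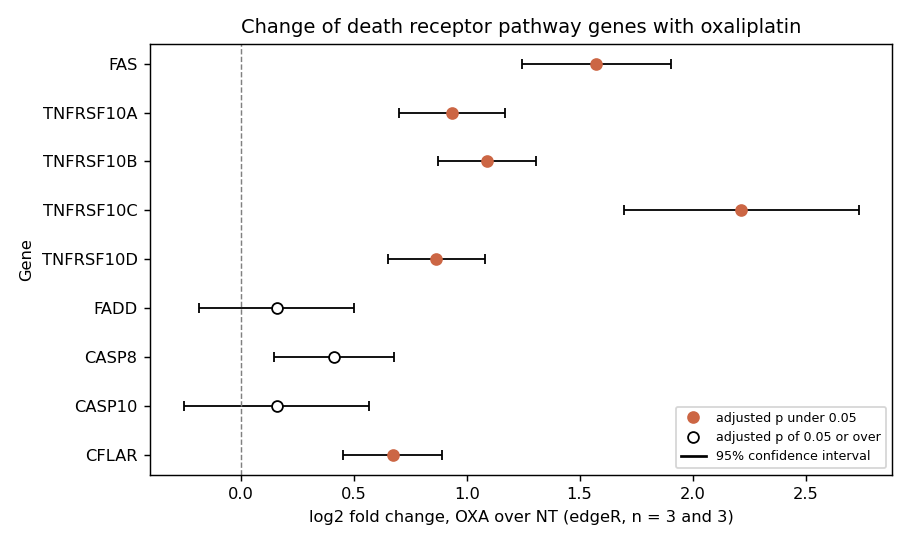
Log2 fold change of OXA over NT from edgeR with its 95% confidence interval (bars) for the 9 tested genes, with filled points for an adjusted p under 0.05. TNFRSF10C at 2.21 and FAS at 1.57 lie farthest from 0, and the intervals of FADD and CASP10 include 0.

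To set the receptors beside each other, CPM was divided by the length in kb of 1 representative transcript for each gene. On this scale the 4 TRAIL receptors formed a pool in which TNFRSF10B held 47.0 ± 1.67% in NT and 48.4 ± 1.97% in OXA. TNFRSF10D held 30.9 ± 2.03% and 27.1 ± 1.80%, and TNFRSF10A 19.1 ± 0.914% and 17.6 ± 0.753%. For both of these every OXA library lay below the NT libraries, though by a narrow margin. The range was 25.1 to 28.2% against 28.6 to 32.6% for TNFRSF10D and 16.9 to 18.4% against 18.5 to 20.1% for TNFRSF10A. The shares of TNFRSF10B overlapped. The shares of a library add up to its whole pool, so a larger share of TNFRSF10C lowers the others as a group. The levels of TNFRSF10D and TNFRSF10A themselves rose. The share of TNFRSF10C was 2.37, 2.78 and 3.90% in NT and 6.34, 6.86 and 7.36% in OXA. The shares of TNFRSF10C in OXA lay above those in NT without overlap, and TNFRSF10C was the smallest part of the pool in all 6 libraries.

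A gain or loss of the decoys together against the signalling receptors was not detectable. The ratio of the level per kb of both decoys to that of both signalling receptors was 0.511, 0.546 and 0.482 in NT and 0.528, 0.539 and 0.480 in OXA. The values of the groups lay within each other, and the log2 ratio differed by 0.0057 between the groups, with SDs of 0.090 in NT and 0.089 in OXA (exact two-sided permutation test, p = 1). Between same-numbered libraries it was higher in OXA in 1 of 3 pairs. Its sign turned with the transcript length used and with the library left out.

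**Figure D3:**
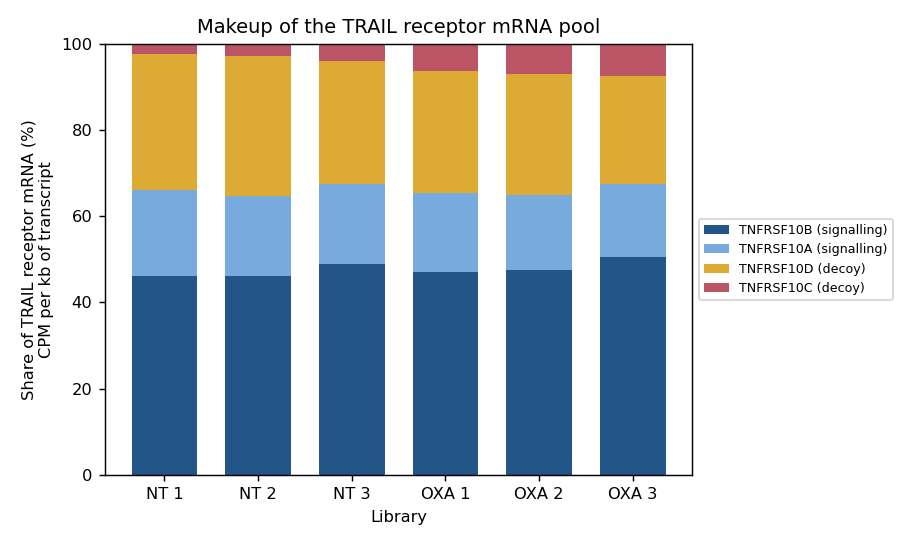
Share in percent of each TRAIL receptor gene in the summed level per kb of transcript of all 4, with 1 bar for each library. The share of TNFRSF10C goes from 2.37 to 3.90% in NT to 6.34 to 7.36% in OXA, and the boundary between signalling receptors (blue) and decoys (yellow and red) stays at a like height in all 6 bars.

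The ratio of FAS to TNFRSF10B counts was between 0.114 and 0.138 in NT and between 0.162 and 0.187 in OXA. All treated libraries lay above all untreated ones, with a difference of 0.48 on the log2 scale, and of 0.44, 0.50 and 0.51 between same-numbered libraries. The exact two-sided permutation test gave p = 0.1, the smallest it can give here, and 0.267 when adjusted over the 4 ratios compared.

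The genes of TRAIL and of FAS ligand were at or near the detection limit in both groups. TNFSF10, which encodes TRAIL, had raw counts of 1, 2 and 2 without and 1, 5 and 0 with oxaliplatin. It did not pass the filter and was not tested, and no difference was detectable at this depth. FASLG, the gene of FAS ligand, had 0 counts in all 6 libraries, which allows up to 3 counts in each. Neither value speaks of ligand from other cells, since the culture held this line.

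The genes of the adaptor and of the caspases did not pass the test. FADD, on chromosome 11 of GRCh38 from 70203296 to 70207390, was at 24.6, 28.2 and 35.6 CPM in NT and at 32.2, 31.2 and 35.4 CPM in OXA. NT library 3 was the highest of all 6 and NT library 1 the lowest. The log2 fold change of FADD was 0.16, with a 95% confidence interval from -0.19 to 0.50 (adjusted p = 0.592 by edgeR), which leaves room for a rise of up to 0.50. Between same-numbered libraries it was higher in 2 of 3 pairs.

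CASP8, CASP10 and CFLAR are neighbours on chromosome 2 of GRCh38, all on the forward strand: CFLAR from 201116154 to 201176687, CASP10 from 201182872 to 201229428 and CASP8 from 201233443 to 201361836. Their representative transcripts share no stretch of 50 bases either. CASP8, the initiator caspase of both receptor types, was at 38.6, 33.3 and 38.0 CPM in NT and at 53.98, 43.97 and 48.3 CPM in OXA. The groups did not overlap, yet CASP8 missed the threshold (log2 fold change 0.41 ± 0.11 SE, adjusted p = 0.0850 by edgeR). Under the block its p, adjusted by edgeR, came to 0.0104 at a log2 fold change of 0.41, and all 3 pairs were higher in OXA, by 0.48, 0.40 and 0.35.

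CASP10, a close relative of CASP8, was the lowest of the tested genes per kb and had between 100 and 144 raw counts in a library. It was at 2.84, 3.12 and 3.45 CPM in NT and at 3.88, 3.06 and 3.57 CPM in OXA. The groups overlapped, with OXA library 2 below 2 of the NT libraries. Its log2 fold change was 0.16, with a 95% confidence interval from -0.25 to 0.57 (adjusted p = 0.662 by edgeR).

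CFLAR, the inhibitor, was at 21.3, 19.9 and 20.4 CPM in NT and at 31.8, 32.5 and 33.7 CPM in OXA. Both groups were tight and far apart. CFLAR rose 1.59-fold, from 20.5 ± 0.712 to 32.7 ± 0.981 CPM (log2 fold change 0.67 ± 0.095 SE, adjusted p = 0.0108 by edgeR). The call was lost in most fits with fewer libraries: of the 6 fits that left out a library, CFLAR passed in the fit without NT library 1 (adjusted p = 0.00375), and in the other 5 the adjusted p was between 0.0511 and 0.0763 at log2 fold changes between 0.62 and 0.69. CFLAR encodes a long and shorter forms of c-FLIP, which counts for a whole gene cannot tell apart.

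The inhibitor was compared with its caspase within each library. The ratio of CFLAR to CASP8 counts was 0.551, 0.596 and 0.536 in NT and 0.589, 0.739 and 0.698 in OXA. OXA library 1 lay among the untreated libraries, and the other two lay above them. The log2 ratio differed by 0.26 (exact two-sided permutation test, p = 0.2). It was higher in OXA in 3 of 3 pairs, by 0.097, 0.31 and 0.38, where the exact sign-flip permutation gave p = 0.25, again the smallest it allows.

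**Figure D4:**
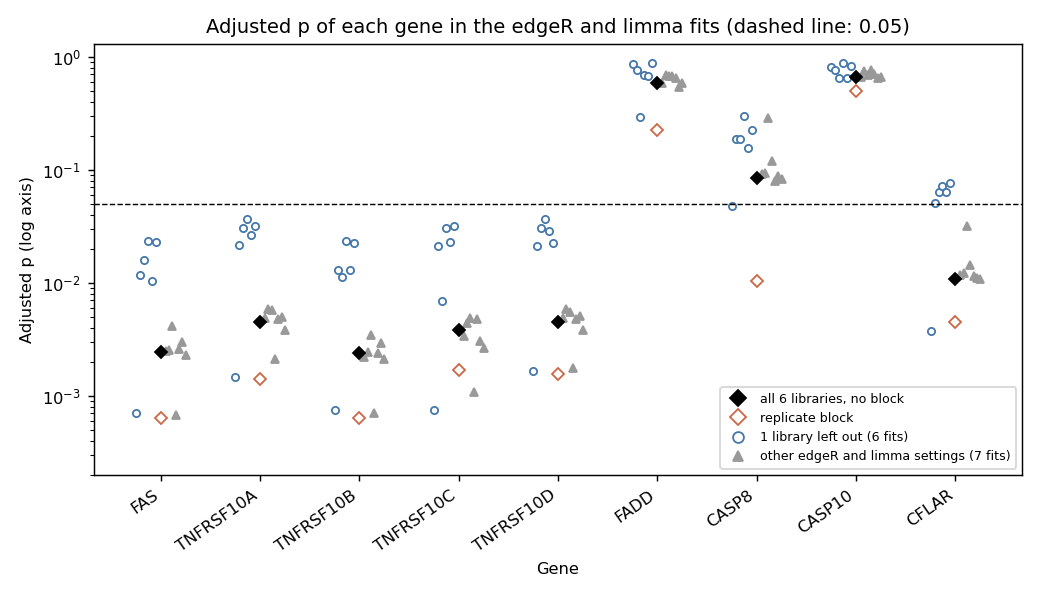
Adjusted p on a log axis for each of the 9 genes in the edgeR fit of all 6 libraries, with the replicate block, with 1 library left out (6 fits) and under 7 other edgeR and limma settings, with a dashed line at 0.05. The 5 receptor genes stay below the line in every fit shown, CFLAR crosses it in 5 of the 6 fits without a library, and CASP8 lies below it with the block and without NT library 1.

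Ordered by the level per kb of transcript, the untreated cells had TNFRSF10B first (30.5 ± 2.46 CPM per kb), then TNFRSF10D (19.9 ± 0.440), FADD (17.3 ± 3.29), CASP8 (13.8 ± 1.09) and TNFRSF10A (12.3 ± 0.645). From TNFRSF10D to TNFRSF10A, each gene overlapped the next in its range over libraries. FAS (4.17 ± 0.534), TNFRSF10C (1.97 ± 0.607), CFLAR (1.40 ± 0.0487) and CASP10 (0.553 ± 0.0537) followed, each apart from the next. In OXA the level per kb of TNFRSF10A (23.6 ± 1.97) was above those of FADD (19.3) and CASP8 (18.3), which overlapped each other, and FAS (12.4 ± 1.47) and TNFRSF10C (9.16 ± 0.523) came closer to them. The value of CFLAR depends on the length used, and its representative transcript has 14612 bases, where those of the others have between 1395 and 5668.

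A list of 47 other genes of the pathway was set beside these, of which 46 were matched by symbol and 38 tested. BAX was higher and CASP8AP2 lower, and the median log2 fold change of the 38 was 0.055. The share called was therefore 1 of 38 in each direction, close to the 2.78% and 2.29% of all genes. With the replicate block 7 were higher and 4 lower of the 38, against 12.1% and 10.9% of all genes. In 8 of the 38 OXA lay above NT without overlap and in 3 below, beside 14.5% and 14.4% of all genes. At an unadjusted p under 0.05 in either direction there were 8 of the 38, beside 21.7% of all genes.

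BAX, which encodes a pore-forming protein of the mitochondrial membrane and is a known p53 target, was at 24.1, 39.3 and 45.1 CPM in NT and at 73.3, 84.4 and 90.9 CPM in OXA. NT library 1 was the lowest, and the groups were well apart. The log2 fold change of BAX was 1.19 (SE 0.22, adjusted p = 0.0258 by edgeR), and 5 of the 6 fits without a library left it at an adjusted p between 0.0511 and 0.110. CASP8AP2, whose product was found as a partner of caspase-8 and also acts in histone gene expression, was at 57.1, 46.8 and 46.7 CPM in NT and at 28.2, 24.4 and 28.3 CPM in OXA. The fall was seen in every pair of libraries, with a log2 fold change of -0.90 (SE 0.12, adjusted p = 0.00975 by edgeR). The adjusted p rose to 0.0617 when OXA library 1 was left out and to 0.0556 when OXA library 2 was.

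The other ligands of the list that were tested, TNFSF12 and EDA, had between 144 and 478 raw counts in a library and log2 fold changes of 0.28 (adjusted p = 0.654 by edgeR) and -0.22 (adjusted p = 0.419 by edgeR).

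The other receptors had 0 of 6 tested genes past the threshold by edgeR and 1 of 6 at an unadjusted p under 0.05 (21.7% of all genes). TNFRSF1A, the main TNF receptor, had a log2 fold change of 0.43 (adjusted p = 0.0794 by edgeR, and 0.0137 with the block). TNFRSF6B, which encodes a soluble decoy for FAS ligand, had one of 1.16 with a wide spread between libraries (SE 0.54, adjusted p = 0.264 by edgeR, and 0.0332 with the block). TNFRSF21 and NGFR, further receptors with a death domain, had log2 fold changes of 0.044 and -0.0082. EDA2R was below the filter, with raw counts of 2, 0 and 2 without and 5, 3 and 13 with oxaliplatin.

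Among 17 tested adaptors and regulators CASP8AP2 alone passed, 3 were at an unadjusted p under 0.05 (21.7% of all genes), and the median log2 fold change was -0.0045. RIPK1, the kinase of the TNF receptor complex, had a log2 fold change of -0.065 (adjusted p = 0.770 by edgeR). BIRC3, an inhibitor of apoptosis gene, had 0.57 (adjusted p = 0.105 by edgeR, and 0.0270 with the block), and FAIM, a FAS inhibitory gene, -0.51 (adjusted p = 0.0995 by edgeR, and 0.0307 with the block). With the block XIAP, a further inhibitor of apoptosis gene, was lower and the ubiquitin ligase gene ITCH higher, at adjusted p of 0.0462 and 0.0411.

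Of 13 tested downstream genes BAX alone passed, with 4 at an unadjusted p under 0.05 (21.7% of all genes). BID, the link to the mitochondrial branch, had a log2 fold change of 0.087 (adjusted p = 0.720 by edgeR). BAK1, the other pore-forming gene, had 0.62 (adjusted p = 0.104 by edgeR, and 0.00825 with the block), and DFFA, the inhibitor of the apoptotic nuclease, 0.31 (adjusted p = 0.0866 by edgeR, and 0.0184 with the block). The other ligands TNF, LTA and TNFSF15, the soluble receptor gene TNFRSF11B and the regulators RIPK3 and FAIM2 had at most 3 raw counts in any library, as FASLG did, which makes 7 genes of the list at the detection limit.

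**Figure D5:**
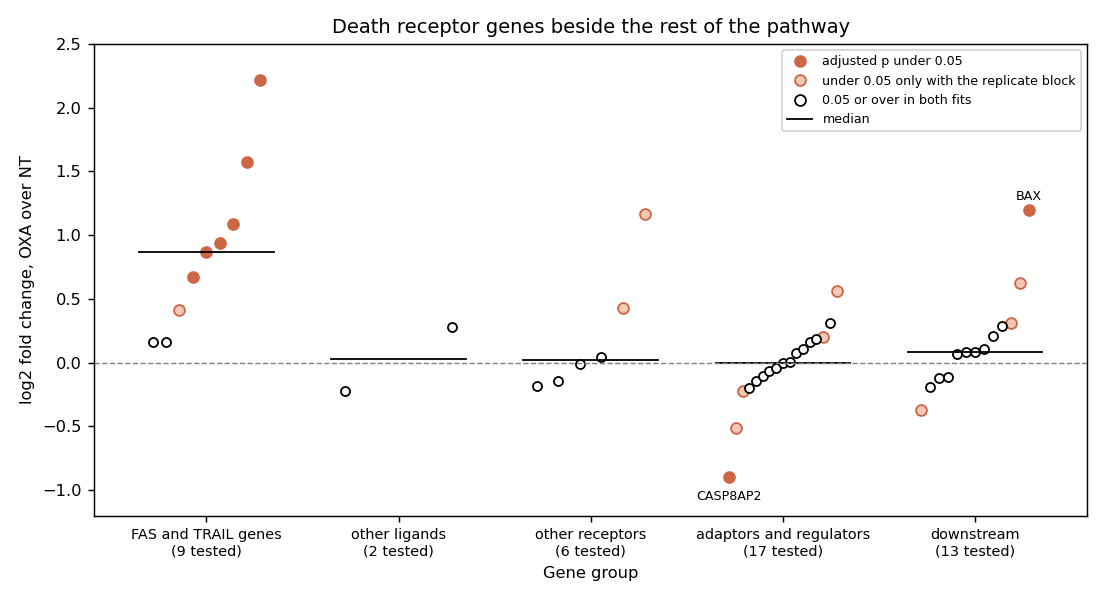
Log2 fold change of OXA over NT for the 9 tested FAS and TRAIL genes and for the 38 tested genes of the list, by role, each sorted by value, with a line at the median of the group. Filled points passed an adjusted p of 0.05, pale points did so only with the replicate block, and the medians are 0.87 for the FAS and TRAIL genes and between -0.0045 and 0.087 for the other groups.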

How the data were processed

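HCT116 RNA-Seq libraries were grouped as NT or OXA by their labels, 3 each. Per the methods and labels, 2x100 reads of polyadenylated RNA were mapped to GRCh38 with STAR 2.7.5b and normalized with DESeq2. The submitters' processing notes also name Trimmomatic 0.32 and RSEM 1.3.3. The annotation and strand setting are not given in the sources used here. The authors deposited raw counts per gene, whole numbers that may be rounded RSEM estimates, and a normalized signal, the raw count times a factor that differs between genes and libraries, which was used for alternatives only.

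Raw counts were filtered (filterByExpr, minimum count 10, minimum total 15), scaled by TMM and tested with edgeR 4.0.16 in R 4.3.3, with limma 3.58.1 and DESeq2 1.42.0 as alternatives. Standard errors are the estimate over the square root of F. Positions and lengths are from GENCODE 44 (MANE or canonical transcript). Counts at or under 3 were taken as the detection limit. Intervals of counting cover counting error only. The steps were tested on simulated data. The simulated counts had the same dispersion for every gene, with no replicate effect and no outlying library. How the fits behave where same-numbered libraries deviate together, or where a library stands apart, was therefore not tested.

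Same-numbered libraries deviated together (correlation of deviations from the group means 0.71, 0.71 and 0.41; between -0.60 and 0.15 for different numbers), all over the limit of 0.1. The numbers come from the labels, which do not say what they stand for.

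The genes and lists were chosen with earlier results of these data known. Named were the 10 genes, the genes of the list and within 100 kb that passed, genes at the detection limit, and the 3 genes most like FAS and TNFRSF10B. Some genes under these rules are not reported here. Other genes of the list named by role were chosen after their values were seen.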

Additional observations from a re-analysis of the deposited data

How the results depend on the processing

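The 5 receptor genes kept their direction and their side of the threshold in all 15 alternative fits, as FADD and CASP10 did on the other side. CASP8 passed with DESeq2 (log2 fold change 0.41, adjusted p = 0.0428) and with the replicate block (0.41), and lay between 0.31 and 0.48 when a library was left out, passing without NT library 1 (edgeR adjusted p = 0.0484). CFLAR lay between 0.62 and 0.70 without a library. The block changed no other call among the 9 genes. The authors' gene-specific factors gave CFLAR 0.58 (edgeR adjusted p = 0.0321).

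Over all genes, calls higher and lower were 241 and 200 with the authors' factors, 633 and 635 with DESeq2, 1664 and 1493 with the replicate block, and between 66 and 623 and between 19 and 571 without a library, the lowest without OXA library 1 and the highest without NT library 1. Upper-quartile factors gave 493 lower, a filter at 1 CPM in 3 libraries 479, and a fold change over 1.5 left 198. In the list of other pathway genes DESeq2 gave 3 higher, the replicate block 7 higher and 4 lower, and leaving out a library between 0 and 1 in each direction.

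The log2 ratio of decoy to signalling receptors differed by -0.041 with the authors' normalized values, by -0.0058 with the union of exons as length, and by between -0.039 and 0.056 without a library. The other 3 ratios kept their direction under each alternative. That of TNFRSF10B to TNFRSF10A fell to 0.024 with the authors' normalized values. The newer edgeR fit and the pairing of the ratios, with a replicate block by sign flips of the pairs (p of 0.25 or 1), were chosen after seeing the data and changed none of these calls. With 3 libraries in a group, an exact test of a ratio cannot reach 0.05, and TNFSF10 was too low to be tested at this depth.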

Other observations

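Among 12065 other genes with a mean of at least 50 normalized counts, those whose log2 CPM over the 6 libraries was most like that of FAS were APBB2 (Pearson r 0.9995), CMBL (0.9991) and RPS27L (0.9989). Their log2 fold changes were 0.66, 1.03 and 1.64. For TNFRSF10B they included LAMA3 (r 0.9992) and COQ6 (0.9986), with log2 fold changes of 1.94 and 0.45. The 6 points fall into 2 groups of 3, so likeness cannot be told apart from a shared difference between NT and OXA, and the values are given as a description with no test.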
